A study of Homo sapiens with 9 samples.

Results

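Caveolae are small flask-shaped pits of the plasma membrane, abundant in mesenchymal and endothelial cells, that hold cholesterol, buffer membrane tension and flatten when the membrane is stretched. Caveolins are hairpin proteins of the inner leaflet that build the pit, and a layer of cavins assembles on top of them from the cytosol. EHD2, a membrane-remodelling ATPase, forms a ring at the neck of the pit, and PACSIN2, an F-BAR protein, helps to bend the membrane there. The messenger RNA of the 6 genes that encode these components in cultured cells was followed, which are the caveolins CAV1 and CAV2, the cavins CAVIN1 and CAVIN3, and the neck proteins EHD2 and PACSIN2. They were taken by name from 27615 genes listed in any library, and all 6 were among the 4236 genes that were listed in every library and had a mean of at least 1 FPKM (fragments per kilobase of gene, scaled to the library total). Because the 6 genes were chosen with their pattern in these libraries already known, their differences are given below as a description, without p-values.

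The data are RNA-seq of MDA-MB-231, an established human triple-negative breast cancer cell line, treated with the solvent DMSO (vehicle), with rimonabant, an inverse agonist of the cannabinoid receptor CB1, or with TXX-1-10, a compound derived from rimonabant. Each treatment had 3 libraries, and no genetic change of the line is named for any of them. How much of each compound the sequenced cells received, and for how long, is not given in the sources used here, so a difference between the compounds is a difference between these treatments. Nothing says that the 3 libraries of a treatment came from separate cultures, so the standard errors and p-values below measure the spread between these libraries, which may be technical. In bulk RNA, less of a transcript per cell and fewer cells that carry it cannot be told apart.

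The library totals behind the deposited values ran from 17078370 to 19277808, and the lists of genes held between 4237 and 27615 entries, the shortest being that of rimonabant replicate 1. In rimonabant replicate 1 and TXX-1-10 replicate 3, the deviation of genes from their treatment mean fell with gene length (Spearman's rho across genes -0.69 in both, a description since genes are not independent replicates). Mitochondrially encoded genes took 6.05% to 6.86% of the total in vehicle and rimonabant libraries and 3.05% to 3.50% in TXX-1-10 libraries, and the part of this in the results was not tested. The markers of the line were present in every library, with VIM at 224 to 329 FPKM, CD44 at 27.4 to 48.2 FPKM and LGALS1 at 148 to 421 FPKM, while CDH1 was at 0 wherever it was listed and ESR1 and PGR did not exceed 0.046 FPKM. Some of these markers moved with the members, LGALS1 falling by 1.34 on the log2 scale under TXX-1-10 (edgeR adjusted p = 2.3e-06) and by 0.76 under rimonabant (edgeR adjusted p = 0.000466). CD44 fell by 0.52 under TXX-1-10 and rose by 0.25 under rimonabant, and VIM was at 0.04 and -0.18 without passing the test. Their part in the results was not tested. Of the other genes held to be low in this line, ERBB2 was at 6.996 to 9.52 FPKM and EPCAM at 4.47 to 5.37 FPKM where listed. Of 16 fibroblast, endothelial, leukocyte and adipocyte markers, none was listed in all 9 libraries and the highest, the endothelial KDR, reached 1.25 FPKM. Relative to the library totals, the median log2 fold change of all 4236 genes was -0.09 for TXX-1-10 against vehicle, -0.02 for rimonabant against vehicle and -0.08 for TXX-1-10 against rimonabant, and the values of the 6 genes are to be read beside these.

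CAV1 (ENSG00000105974) lies on the plus strand of chromosome 7 from 116524785 to 116561184 (GRCh38), and CAV2 (ENSG00000105971), on the same strand from 116287380 to 116508541, ends 16.2 kb before it. CAVIN1 (ENSG00000177469) is on chromosome 17 from 42402452 to 42423517, CAVIN3 (ENSG00000170955) on chromosome 11 from 6318946 to 6320647, EHD2 (ENSG00000024422) on chromosome 19 from 47713343 to 47743134 and PACSIN2 (ENSG00000100266) on chromosome 22 from 42835412 to 43015145. All are protein-coding, and their counted exon lengths ran from 1672 bases for CAVIN3 to 6926 bases for CAV2. PACSIN2 shares 155 exon bases on the same strand with ARFGAP3, so reads in that stretch are uncertain. CAVIN3 shares 557 exon bases with an antisense transcript that had at most 8 counts, and CAV2 shares 76 with an antisense transcript that had at most 28. Whether the counting used strand is not stated in the sources used here.

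The sequence before the start of 4 of the 6 genes was found in RefSeq (GRCh38.p14), and 3 are shown because CAV1 and CAV2 are neighbours whose transcripts were both lower under the compounds while EHD2 was the member nearest to its vehicle level under TXX-1-10. The upstream sequence of CAVIN2, a further cavin described below, is added. Each is the 250 bases before the 5′-most RefSeq start, written 5′ to 3′ along the gene, with capitals marking the GC box GGGCGG or the TEAD motif CATTCC on either strand. The CAV1 window is chr7:116524759-116525008, that of CAV2 is chr7:116499488-116499737, that of EHD2 is chr19:47713172-47713421 (all plus strand) and that of CAVIN2 is chr2:191847089-191847338 (minus strand). In the GENCODE release 29 annotation the CAV1 and EHD2 genes begin within these windows, and the CAVIN2 gene begins within its window too. The CAV2 window lies inside the counted CAV2 gene, which begins at 116287380 in that annotation, so it precedes the RefSeq start and not the whole counted gene.
CAV1: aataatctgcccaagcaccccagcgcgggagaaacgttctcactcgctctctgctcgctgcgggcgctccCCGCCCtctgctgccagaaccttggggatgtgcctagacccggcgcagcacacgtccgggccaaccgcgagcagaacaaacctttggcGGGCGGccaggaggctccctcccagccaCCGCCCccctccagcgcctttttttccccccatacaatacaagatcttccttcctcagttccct
CAV2: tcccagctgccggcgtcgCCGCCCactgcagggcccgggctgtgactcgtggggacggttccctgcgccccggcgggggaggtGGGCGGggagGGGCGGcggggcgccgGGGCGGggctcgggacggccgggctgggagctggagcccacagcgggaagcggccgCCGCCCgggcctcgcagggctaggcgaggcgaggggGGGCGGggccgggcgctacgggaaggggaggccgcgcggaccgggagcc
EHD2: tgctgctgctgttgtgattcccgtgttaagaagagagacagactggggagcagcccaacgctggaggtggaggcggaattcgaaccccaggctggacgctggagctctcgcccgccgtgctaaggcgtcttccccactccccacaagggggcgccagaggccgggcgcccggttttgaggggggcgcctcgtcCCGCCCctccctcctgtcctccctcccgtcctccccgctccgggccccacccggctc
CAVIN2: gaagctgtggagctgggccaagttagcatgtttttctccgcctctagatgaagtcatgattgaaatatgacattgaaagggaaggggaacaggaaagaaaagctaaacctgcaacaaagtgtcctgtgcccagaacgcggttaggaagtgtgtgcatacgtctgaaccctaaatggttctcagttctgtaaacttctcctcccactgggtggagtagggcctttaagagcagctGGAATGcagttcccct
The 4 motifs searched, chosen after the values were seen, were the GC box, the TEAD motif CATTCC, the AP-1 motif TGANTCA and the TATA box TATAAA, on both strands of windows from 250 bases before to 50 bases after the start. The GC box was in 45% of all 35116 such windows, the TEAD motif in 14%, the AP-1 motif in 7.71% and the TATA box in 11.5%. CAV1 held 3 GC boxes, CAV2 held 6, EHD2 held 1 and PACSIN2 held 2, and none of the 4 held any of the other motifs. CAVIN2 held no GC box and 1 TEAD motif, 16 bases before the start. The GC content of the windows was 62.3% for CAV1, 82.7% for CAV2, 71% for EHD2 and 49.3% for CAVIN2, beside a median of 58.7% over all windows. These matches describe the letters only.

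CAV1, the caveolin without which most cells form no caveolae, was the member that differed most between treatments. Its FPKM was 145, 140 and 135 in the vehicle libraries, 49.7, 48.9 and 47.2 in the rimonabant libraries and 21.0, 20.8 and 22.9 in the TXX-1-10 libraries. The treatments did not overlap, every vehicle library lying above every rimonabant library and every rimonabant library above every TXX-1-10 library. The group means were 140 ± 5.13, 48.6 ± 1.30 and 21.6 ± 1.18 FPKM (SD, n = 3), so rimonabant libraries held 34.7% and TXX-1-10 libraries 15.4% of the vehicle level. In the fit, CAV1 was 6.49-fold lower under TXX-1-10 than under vehicle (log2 fold change -2.70, SE 0.06, 95% interval -2.82 to -2.57), and 5 of the 4236 genes had a lower log2 fold change. It was 2.88-fold lower under rimonabant than under vehicle (-1.53, SE 0.05, interval -1.65 to -1.41), where 4 genes had a lower value, and 2.25-fold lower under TXX-1-10 than under rimonabant (-1.17, SE 0.05, interval -1.29 to -1.05), where 118 did. Genes missing from any list, such as CAVIN2 described below, are outside these ranks. Ranked by mean FPKM among the 4236 genes, CAV1 was at place 210 in vehicle-treated cells, at place 804 under rimonabant and at place 1913 under TXX-1-10.

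**Figure D1:**
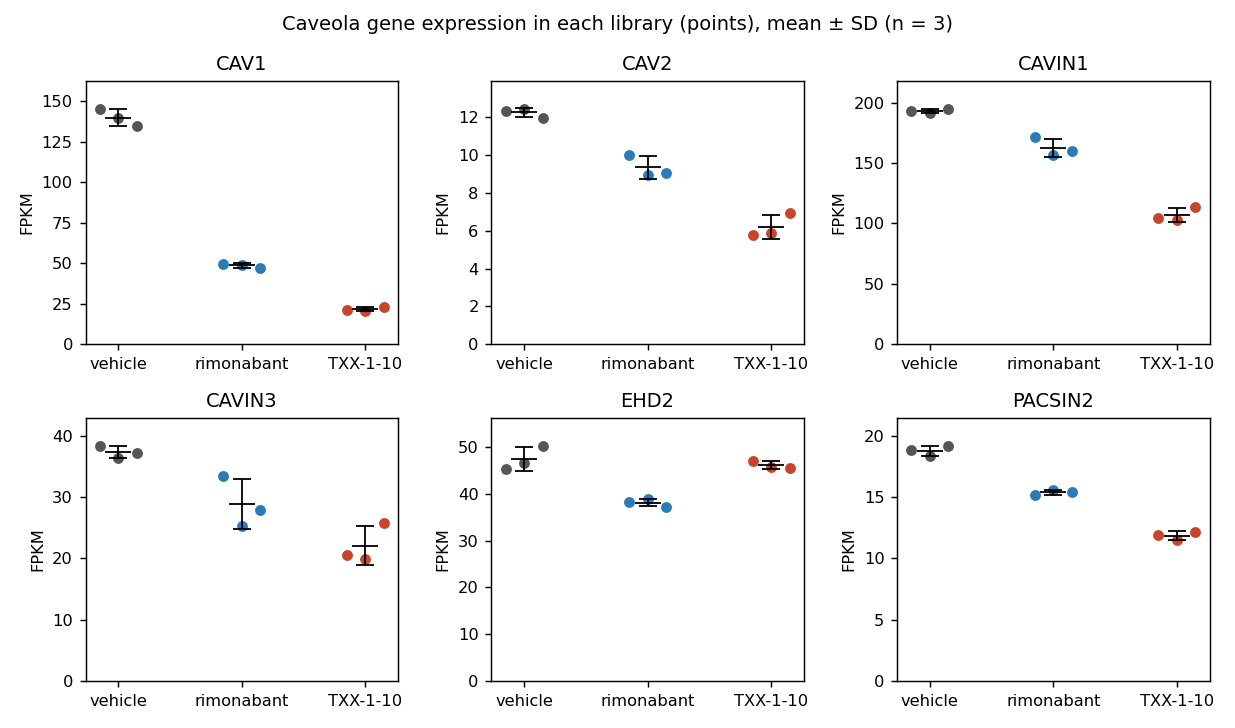
FPKM of the 6 caveola genes in each of the 9 libraries, with 1 panel for each gene, points for libraries and bars for the mean ± SD of 3 libraries. CAV1 falls into 3 separate levels around 140, 48.6 and 21.6 FPKM, and EHD2 is at 47.4 FPKM in vehicle and 46.1 FPKM in TXX-1-10 libraries.

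CAV2, which needs CAV1 to reach the cell surface, was the least abundant member per length in every treatment. This place rests on its counted length of 6926 bases, the longest of the members. In counts not divided by length, CAV2 had 1429 to 1484 in vehicle libraries, beside 1049 to 1095 for CAVIN3 and 1441 to 1503 for PACSIN2. Its FPKM was 12.4, 12.4 and 11.98 in vehicle libraries, 10.0, 8.96 and 9.05 in rimonabant libraries and 5.78, 5.88 and 6.95 in TXX-1-10 libraries. The treatments again did not overlap and followed the order of CAV1, with smaller steps. CAV2 held 76.3% of its vehicle level under rimonabant and 50.6% under TXX-1-10. The log2 fold change of CAV2 against vehicle was -0.98 for TXX-1-10 (SE 0.08, interval -1.15 to -0.81), -0.39 under rimonabant (SE 0.08, interval -0.56 to -0.22) and -0.59 between the compounds (SE 0.08). The first of these lies just short of the fold threshold of 1 on the log2 scale, and without TXX-1-10 replicate 3, the highest of its group, it was -1.07.

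CAVIN1, the cavin that every cell type needs to form caveolae, was the most abundant member in every treatment. Its FPKM was 193, 192 and 195 in vehicle libraries, 171, 157 and 160 in rimonabant libraries and 104, 103 and 114 in TXX-1-10 libraries. No groups overlapped, and the lowest rimonabant library stood above the highest TXX-1-10 library. CAVIN1 held 84.2% of its vehicle level under rimonabant (log2 fold change -0.25, SE 0.06) and 55.4% under TXX-1-10 (-0.85, SE 0.06, interval -0.98 to -0.73), with -0.60 (SE 0.06) between the compounds.

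CAVIN3, a cavin that joins the coat as a smaller share and binds protein kinase C delta, had the widest spread between libraries under rimonabant and under TXX-1-10, though not under vehicle. Its FPKM was 38.3, 36.4 and 37.3 in vehicle libraries, 33.4, 25.3 and 27.9 in rimonabant libraries and 20.5, 20.0 and 25.7 in TXX-1-10 libraries. Both compounds lay below vehicle without overlap, while TXX-1-10 replicate 3 lay above rimonabant replicate 2. The log2 fold change was -0.76 under TXX-1-10 (SE 0.12, interval -1.02 to -0.50), -0.37 under rimonabant (SE 0.11) and -0.39 between the compounds (SE 0.12). The high libraries, rimonabant replicate 1 and TXX-1-10 replicate 3, stood 1.26 times and 1.27 times above the mean of the other libraries of their group, and in both libraries values fell with gene length. CAV2, the longest member, was also highest in these libraries, at 1.11 times and 1.19 times the others, and the part of gene length in the spread of the members was not tested. With a trend on gene length removed in each library, the 3 log2 fold changes of CAVIN3 were -0.77, -0.38 and -0.39.

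EHD2, the ATPase of the caveola neck, had another order of treatments than the other members. Its FPKM was 45.4, 46.6 and 50.2 in vehicle libraries, 38.3, 38.8 and 37.2 in rimonabant libraries and 47.0, 45.7 and 45.6 in TXX-1-10 libraries. Rimonabant libraries were below all others, and the TXX-1-10 libraries overlapped the vehicle libraries. The log2 fold change was -0.04 under TXX-1-10 (SE 0.05, interval -0.15 to 0.07), -0.32 under rimonabant (SE 0.05, interval -0.42 to -0.21) and 0.27 for TXX-1-10 against rimonabant (SE 0.05, interval 0.17 to 0.38). Over all alternatives of scaling, filter and library the TXX-1-10 value against vehicle ran from -0.07 to 0.13, the latter with library sizes taken as the sum over the tested genes. EHD2 held 97.2% of its vehicle FPKM under TXX-1-10, where the other 5 members held between 15.4% and 63.1%.

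PACSIN2, the F-BAR protein that links caveolae to dynamin and helps to shape the neck, was lower in both treatments with little spread. Its FPKM was 18.8, 18.3 and 19.2 in vehicle libraries, 15.2, 15.5 and 15.4 in rimonabant libraries and 11.9, 11.5 and 12.2 in TXX-1-10 libraries. The 3 treatments did not overlap. The log2 fold change was -0.67 under TXX-1-10 (SE 0.05), -0.29 under rimonabant (SE 0.05) and -0.38 between the compounds (SE 0.05).

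Calls of changed genes required a log2 fold change of 1 or more in either direction together with an adjusted p below 0.05 (edgeR quasi-likelihood test over all 4236 genes, Benjamini-Hochberg). These are the thresholds in a figure legend of the study, whose methods name a p value from Cufflinks instead, so its calls rest on another test. For TXX-1-10 against vehicle, 1 of the 6 members was called, CAV1, beside 11.8% of all tested genes called in either direction and 7.6% called lower. For rimonabant against vehicle it was again CAV1 alone, beside 1.13% of all genes and 0.614% called lower. For TXX-1-10 against rimonabant CAV1 alone was called, beside 5.93% of all genes and 4.34% called lower. As the members were chosen on these contrasts, nothing is read from these counts. The split of all calls for TXX-1-10 against vehicle was 322 lower and 178 higher with the library totals, and 236 lower and 264 higher with library sizes taken as the sum over the tested genes, a scaling that moved the median of all genes from -0.09 to 0.08. CAV1 was called in all 3 comparisons under all 22 alternatives, with its TXX-1-10 value between -2.74 and -2.53. In the FPKM of single libraries, 5 members were lower without overlap under TXX-1-10 than under vehicle, beside 46.3% of all genes, and all 6 were so under rimonabant, beside 31.5%. The order vehicle, rimonabant, TXX-1-10 from high to low without overlap was seen in 4 members, CAV1, CAV2, CAVIN1 and PACSIN2, beside 17.4% of all genes. Against rimonabant, TXX-1-10 libraries were lower without overlap for 4 members, beside 38.8% of all genes, and higher for EHD2, beside 24.8%. The median log2 fold change of the 6 members was -0.81 under TXX-1-10, -0.34 under rimonabant and -0.49 between the compounds. The first and the last of these comparisons share the TXX-1-10 libraries, and the comparisons against vehicle share the vehicle libraries.

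**Figure D2:**
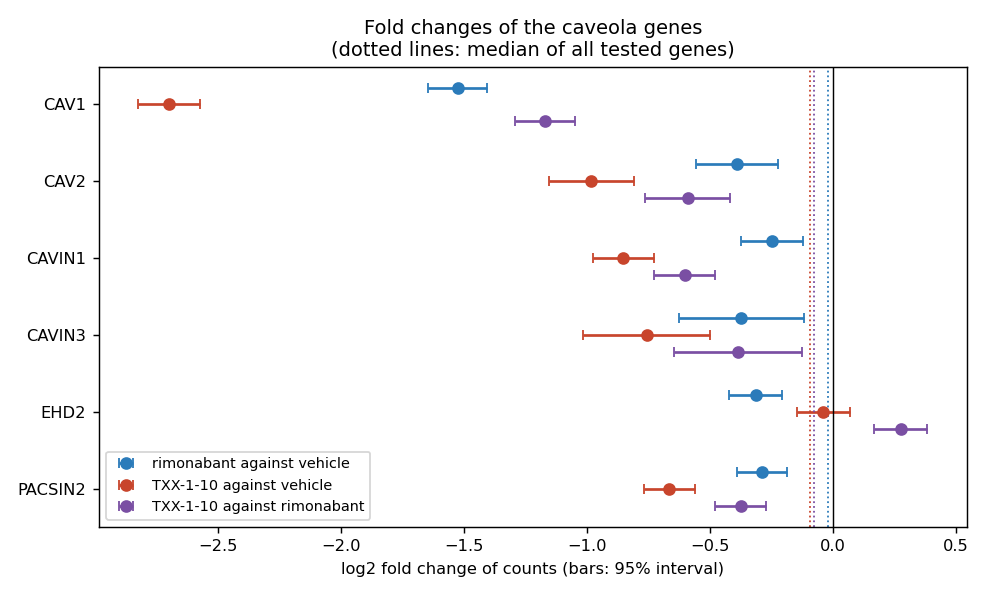
Log2 fold changes of the 6 caveola genes in the 3 comparisons (x axis, counts, edgeR), with bars for the 95% interval and dotted lines for the median of all 4236 tested genes in each comparison. CAV1 stands apart at -2.70, -1.53 and -1.17, while EHD2 lies at -0.04 under TXX-1-10 and at 0.27 for TXX-1-10 against rimonabant.

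The order of the members by FPKM, which divides by the counted exon length, changed with treatment. In vehicle and in rimonabant libraries the order by mean FPKM was CAVIN1, CAV1, EHD2, CAVIN3, PACSIN2 and CAV2, and no neighbours in this order overlapped. In TXX-1-10 libraries it was CAVIN1, EHD2, CAVIN3, CAV1, PACSIN2 and CAV2, and of these neighbours CAVIN3 and CAV1 overlapped, with means 1.02-fold apart. The summed FPKM of the 6 members was 449 ± 4.02 in vehicle libraries, 303 ± 13.1 under rimonabant and 215 ± 10.7 under TXX-1-10 (SD, n = 3). CAV1 made up 31.2% ± 0.983 of that sum in vehicle libraries, 16.1% ± 0.519 under rimonabant and 10.0% ± 0.0623 under TXX-1-10. CAVIN1 made up 43.0% ± 0.396, 53.7% ± 0.381 and 49.8% ± 0.267, and EHD2 made up 10.6% ± 0.604, 12.6% ± 0.577 and 21.5% ± 1.22, in the same order.

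Ratios within a library do not depend on the library total. Their size does depend on the counted exon lengths, which are the same in every library. The ratio of CAV1 to CAV2 in FPKM was 11.4 ± 0.281 in vehicle libraries, 5.21 ± 0.254 under rimonabant and 3.49 ± 0.172 under TXX-1-10 (SD, n = 3), without overlap. The ratio of CAV1 to CAVIN1, caveolin to main cavin, was 0.725 ± 0.0294, 0.299 ± 0.0118 and 0.202 ± 0.000218 in the same order. Between cavins the ratio held more evenly, CAVIN1 to CAVIN3 being 5.17 ± 0.120, 5.68 ± 0.531 and 4.88 ± 0.412, with all 3 groups overlapping. CAVIN1 to EHD2 was 4.08 ± 0.193 under vehicle and 4.27 ± 0.221 under rimonabant, which overlapped, and 2.32 ± 0.147 under TXX-1-10, which lay below both. Within a library, CAV1 was thus lower against CAV2, CAVIN1 and EHD2 under both compounds, and CAVIN1 was lower against EHD2 under TXX-1-10.

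**Figure D3:**
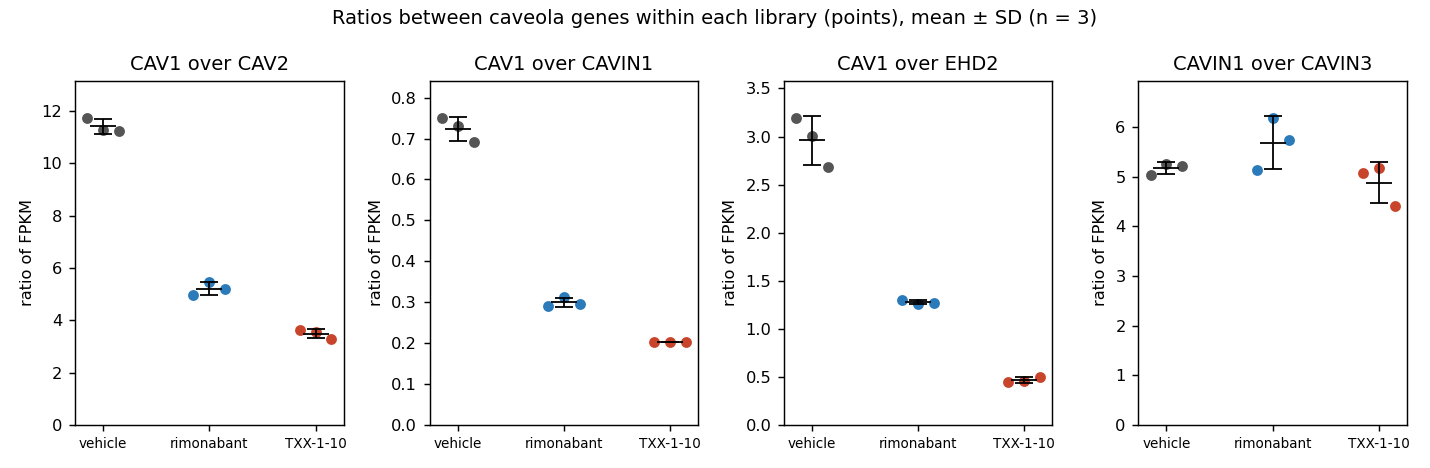
Ratios of FPKM between pairs of caveola genes within each library (points), with the mean ± SD of 3 libraries, 1 panel for each pair. CAV1 over CAV2 steps down from 11.4 to 5.21 and 3.49, and CAVIN1 over CAVIN3 overlaps between treatments.

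Across the 9 libraries, the 5 members other than EHD2 went together, with Pearson's r of log2(FPKM + 1) from 0.92 for CAVIN3 and PACSIN2 to 0.99 for CAV2 and CAVIN1. EHD2 had r between -0.11 and 0.18 with the other members. These are descriptions over 9 libraries that share 3 treatments, which set most of the spread. The tested gene with the pattern most like CAV1 by this measure was MYL9, a regulatory light chain of non-muscle and smooth muscle myosin (r = 0.998), followed by HNRNPU and SYNCRIP, both RNA-binding proteins. MYL9 was at 36.9 ± 1.71, 14.4 ± 1.03 and 6.58 ± 0.339 FPKM, with log2 fold changes of -2.49 under TXX-1-10 and -1.35 under rimonabant. The genes most like CAV2 were PPP1CC, CBX3 and IKBIP, and those most like CAVIN1 were PAICS, GAPDH and SLC2A4RG. Such likeness was common, since 373 genes had r over 0.95 with CAV1, 500 with CAV2 and 609 with CAVIN1.

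The other genes of the caveola coat and neck were taken as a list by function, as were the lists further below. All were drawn up with earlier results of these data known, so their calls and p-values are a description and no independent test. The coat and neck list holds CAV3, CAVIN2, CAVIN4, EHD1, EHD3, EHD4, PACSIN1, PACSIN3, the receptor ROR1 and the neck-cutting GTPase DNM2. Among these 10 genes, 3 entered the fit of 9 libraries and 3 a fit of the 8 libraries other than rimonabant replicate 1, whose list ends before them. The muscle forms CAV3 and CAVIN4, EHD3 and the neuronal PACSIN1 were listed in fewer than 8 libraries and were not tested. In the fit of 8 libraries, 9369 genes were tested, of which 12.7% were called for TXX-1-10 against vehicle, 1.49% for rimonabant against vehicle and 6.41% for TXX-1-10 against rimonabant. Before the filter, these genes were the whole list of vehicle replicate 2, with 9397 entries. Of the calls for TXX-1-10 against vehicle, 692 were lower and 495 higher. The part of this choice by a vehicle library was not tested. Of the 3 list members in that fit, CAVIN2 and ROR1 were called lower under TXX-1-10, where 7.39% of all genes were called lower. CAVIN2 was also called lower under rimonabant, beside 0.758% of all genes, and both genes between the compounds, beside 4.31%. The 3 in the fit of 9 libraries gave no call, beside 11.8%, 1.13% and 5.93% of all genes in the same order of comparisons.

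CAVIN2, the cavin that binds phosphatidylserine and bends caveolar membrane, had the largest fold of any caveola gene tested. Its FPKM was 9.70, 9.81 and 10.0 in vehicle libraries, 2.68 and 2.29 in rimonabant replicates 2 and 3, and 0.610, 0.589 and 0.673 in TXX-1-10 libraries, on 535 to 558, 137 to 163 and 35 to 40 counts. The 3 treatments did not overlap, and the step from rimonabant to TXX-1-10 matched that from vehicle to rimonabant on the log2 scale. CAVIN2 was below 1 FPKM in every TXX-1-10 library and met the filter mean of 1 FPKM only through the other libraries. Its p-values are a description for this reason too. CAVIN2 fell by 3.98 on the log2 scale under TXX-1-10 (SE 0.11, edgeR adjusted p = 2.25e-11) and by 1.98 under rimonabant (SE 0.10, edgeR adjusted p = 7.96e-08). Between the compounds the log2 fold change was -1.99 (SE 0.13, edgeR adjusted p = 1.18e-07). It was called in all 3 comparisons under all 18 alternatives run, with the TXX-1-10 value against vehicle between -4.03 and -2.74.

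ROR1, a receptor pseudokinase reported to scaffold CAVIN1 and CAV1, followed the same order. Its FPKM was 5.12, 4.86 and 5.03 in vehicle libraries, 2.91 and 2.62 in rimonabant replicates 2 and 3, and 0.896, 0.996 and 0.809 in TXX-1-10 libraries. No groups overlapped. ROR1 fell by 2.47 on the log2 scale under TXX-1-10 (SE 0.09, edgeR adjusted p = 2.63e-10) and by 0.85 under rimonabant (SE 0.09, edgeR adjusted p = 2.27e-05), and its log2 fold change for TXX-1-10 against rimonabant was -1.62 (edgeR adjusted p = 8.93e-08). That last call was lost with limma on log2(FPKM + 1), where the value was -0.99.

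DNM2, the dynamin that cuts vesicles from the membrane, was at 17.9 ± 0.731, 17.8 ± 0.378 and 16.9 ± 0.731 FPKM (SD, n = 3) and did not pass the test in any comparison, its log2 fold change under TXX-1-10 being -0.08 (95% interval -0.20 to 0.03, edgeR adjusted p = 0.15). The remaining tested members of the list are named here after their values were seen. EHD1 and EHD4, paralogues of EHD2 that also act in recycling endosomes, fell by 0.96 and 0.81 on the log2 scale under TXX-1-10 (edgeR adjusted p = 1.16e-07 and 1.95e-07) and by 0.46 and 0.49 under rimonabant, short of the fold threshold. They stand beside EHD2 at -0.04. PACSIN3, a paralogue of PACSIN2, fell by 0.75 under TXX-1-10 and by 0.63 under rimonabant, and its difference between the compounds was -0.12 (95% interval -0.31 to 0.08, edgeR adjusted p = 0.273).

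**Figure D4:**
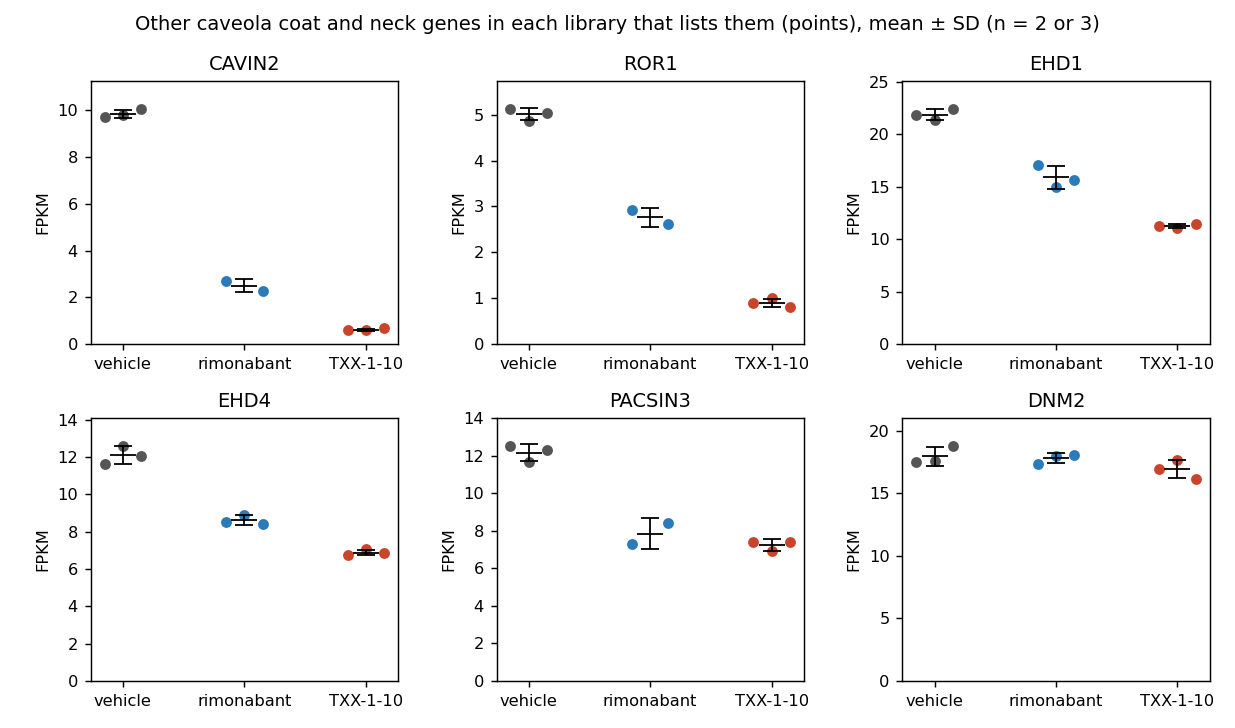
FPKM of the 6 tested genes of the other coat and neck list in each library (points), with the mean ± SD of the libraries that list the gene, 1 panel for each gene. CAVIN2 steps from 9.85 to 2.49 and 0.624 FPKM and ROR1 from 5.004 to 2.77 and 0.900 FPKM, while DNM2 stays between 16.9 and 17.9 FPKM on average.

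Caveolae are tied to actin stress fibres and regulated by SRC, ABL1 and the phosphatase PTPN1, and 10 genes of this kind were listed. None of the 8 tested in 9 libraries and none of the 2 tested in 8 libraries was called in any comparison. Of all genes, 11.8% were called for TXX-1-10 against vehicle, 1.13% for rimonabant against vehicle and 5.93% between the compounds in 9 libraries. In 8 libraries the shares were 12.7%, 1.49% and 6.41%, and nothing is read from the lack of calls. At any fold, 6 of the 8 passed the test as lower and 1 as higher under TXX-1-10, beside 43.8% of all genes lower and 30.5% higher. Of the 6, all but RHOA and DIAPH1 passed in all 22 alternatives, DIAPH1 passing in 20. RHOA, the GTPase that drives stress fibres, had the highest level of the list at 249 ± 2.40, 218 ± 12.7 and 219 ± 14.8 FPKM (SD, n = 3). Its log2 fold change was -0.19 under both compounds (edgeR adjusted p = 0.0188 under TXX-1-10 and 0.0273 under rimonabant), a pass held in 15 and 16 of 22 alternatives, with the TXX-1-10 value up to -0.019 and its adjusted p up to 0.724. Chosen after its values were seen, the actin crosslinker FLNA fell by 0.37 under TXX-1-10 and by 0.50 under rimonabant on the log2 scale. The kinase SRC, chosen likewise, rose by 0.51 under TXX-1-10 (SE 0.07, edgeR adjusted p = 5.12e-05), while its value under rimonabant was -0.20 (edgeR adjusted p = 0.0349, under 0.05 in 14 of 22 alternatives). The difference between the compounds for SRC was 0.70 (edgeR adjusted p = 8.14e-06).

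Clathrin-coated pits are the other main route of coated entry at the membrane, and 15 genes of the clathrin coat and its adaptors were listed for comparison. In the fit of 9 libraries, 11.8% of all genes were called for TXX-1-10 against vehicle, 1.13% for rimonabant against vehicle and 5.93% between compounds. Of the 11 list genes tested there, none was called in any comparison, and nothing is read from this. Under TXX-1-10, 7 of them passed the test as lower and 1 as higher at any fold, beside 43.8% of all genes lower and 30.5% higher. Of the 7, AP2B1, AP2M1 and AP2S1 passed in all 22 alternatives, while CLTC, AP2A1, AP2A2 and EPN1 passed in 18, 9, 19 and 16 of them. The median log2 fold change of the 11 was -0.19 beside -0.09 for all genes. AP2S1, the small subunit of the AP-2 adaptor and the most abundant of the list, was at 158 ± 2.17, 157 ± 22.7 and 108 ± 13.1 FPKM (SD, n = 3), and fell by 0.55 on the log2 scale under TXX-1-10 (SE 0.11, edgeR adjusted p = 0.000893). Of the 4 tested in 8 libraries, DAB2, a cargo adaptor, was called higher under TXX-1-10, beside 5.28% of all genes, at 4.48 ± 0.0902 FPKM in vehicle and 9.33 ± 0.482 FPKM in TXX-1-10 libraries. Its log2 fold change was 1.06 (SE 0.06, edgeR adjusted p = 7.83e-09), close to the threshold, and 0.91 with limma on log2(FPKM + 1). All 4 genes of this group passed the test as higher at any fold under TXX-1-10, where 34.7% of all genes in that fit did.

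Flotillins mark other cholesterol-rich domains, and 6 genes of flotillins and raft scaffolds were listed. FLOT1, the most abundant, was at 55.8 ± 1.19, 50.4 ± 3.91 and 56.6 ± 2.98 FPKM (SD, n = 3) and it did not pass the test against vehicle, with 0.02 on the log2 scale for TXX-1-10 (SE 0.06, edgeR adjusted p = 0.774). LIMCH1, an actin- and myosin-binding protein, was the only call of the 5 tested, and it is known as an activator of myosin in stress fibres, not as a raft scaffold. It was at 20.1 ± 0.468, 12.2 ± 1.24 and 5.54 ± 0.224 FPKM and fell by 1.86 on the log2 scale under TXX-1-10 (SE 0.07, edgeR adjusted p = 7.65e-09). It also fell by 1.14 from rimonabant to TXX-1-10 (edgeR adjusted p = 4.89e-07). Both calls held under all 22 alternatives. Of all genes in the fit of 9 libraries, 7.6% were called lower under TXX-1-10 against vehicle and 4.34% against rimonabant. Nothing is read about the list from this 1 gene. MAL2 was listed in too few libraries to be tested. It had 73 and 56 counts in vehicle replicates 1 and 3, 132 and 134 in rimonabant replicates 2 and 3, and 192, 162 and 192 in TXX-1-10 libraries.

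Of 12 membrane proteins reported in caveolae, all were tested and SLC2A1, the glucose transporter GLUT1, was the only call. Nothing is read about the list from 1 call. SLC2A1 was called lower under TXX-1-10 against vehicle, beside 7.6% of all genes in the fit of 9 libraries, and against rimonabant, beside 4.34%. Its FPKM was 48.6 ± 0.365, 33.8 ± 1.78 and 15.7 ± 0.442 (SD, n = 3), and it fell by 1.63 on the log2 scale under TXX-1-10 (SE 0.05, edgeR adjusted p = 1.51e-09) and by 1.11 from rimonabant to TXX-1-10 (edgeR adjusted p = 4.62e-08). Under TXX-1-10, 6 of the 11 in the fit of 9 libraries passed the test as lower at any fold, beside 43.8% of all genes, 2 as higher, beside 30.5%, and 3 did not pass. ITGB1, the integrin beta chain of matrix receptors and the most abundant, fell by 0.66 under TXX-1-10 and by 0.24 under rimonabant. Chosen after their values were seen, TGFBR2 fell by 0.79 and 0.45 and PLAUR, the urokinase receptor, rose by 0.79 and 0.85 on the log2 scale. EGFR, which signals from caveolae in some cells, was at 0.03 under TXX-1-10 (SE 0.14, edgeR adjusted p = 0.838).

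**Figure D5:**
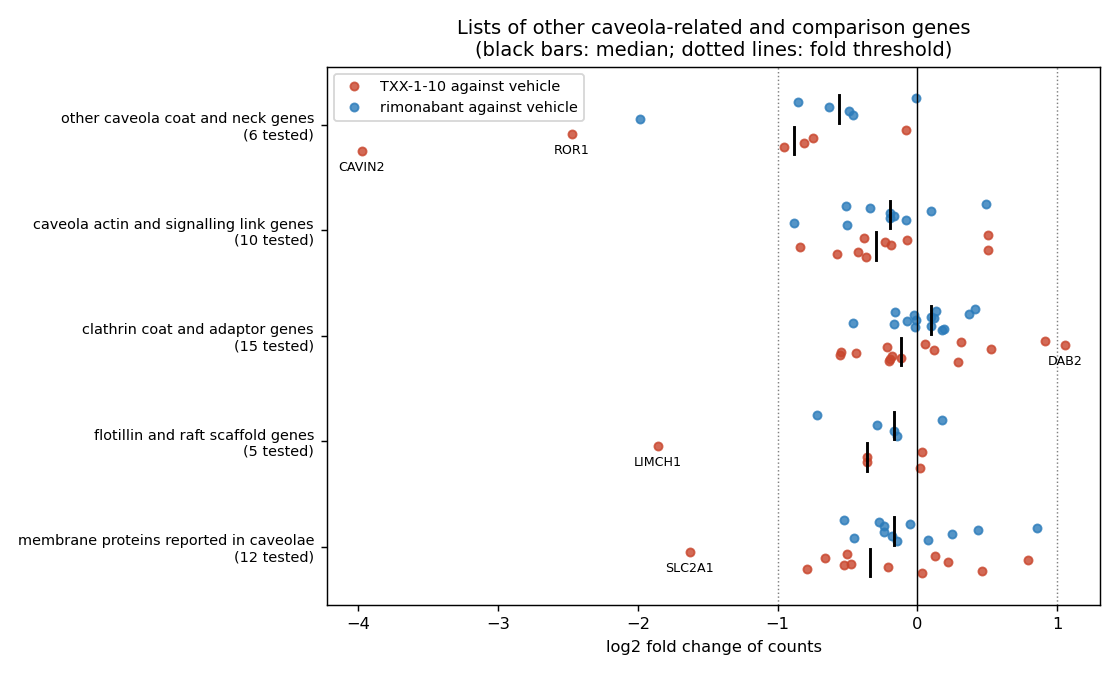
Log2 fold changes of the tested genes of each list of caveola-related and comparison genes, TXX-1-10 against vehicle and rimonabant against vehicle, with 1 point for each gene, black bars for the median of a list and dotted lines at -1 and 1. CAVIN2, ROR1, LIMCH1 and SLC2A1 lie below -1 and DAB2 above 1 under TXX-1-10, and CAVIN2 alone lies below -1 under rimonabant.

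Since CAV1 and CAV2 are neighbours, the genes within 1 Mb of CAV1 were examined. Of 20 other genes there, 3 were tested in 9 libraries and 1 in 8 libraries, and none of those tested was called. For TXX-1-10 against vehicle, 11.8% of all genes were called in 9 libraries and 12.7% in 8, and nothing is read from this. The remaining 16 were not listed in enough libraries to be tested, and those named next were chosen after their values were seen. AC073130.1, which ends just before CAV2, had the most counts of them, 125 and 114 in vehicle replicates 1 and 3. It had 74 and 48 in rimonabant replicates 2 and 3, then 29 and 28 in TXX-1-10 replicates 2 and 3. Other untested genes had at most 35 counts, with AC002066.1 lower and TFEC higher in the compound libraries that list them. MET, the hepatocyte growth factor receptor, begins 111 kb after CAV1 and was at 42.7 ± 1.02, 35.9 ± 3.69 and 43.9 ± 3.75 FPKM (SD, n = 3), its log2 value against vehicle being 0.04 for TXX-1-10 (SE 0.08, edgeR adjusted p = 0.683) and -0.25 for rimonabant (SE 0.08, edgeR adjusted p = 0.028). CAPZA2, an actin-capping subunit, was at 0.08 under TXX-1-10 (SE 0.07, edgeR adjusted p = 0.345). TES, a focal adhesion protein on the side of CAV2, rose by 0.66 under TXX-1-10 (SE 0.05, edgeR adjusted p = 1.47e-06) and by 0.42 under rimonabant (SE 0.05, edgeR adjusted p = 0.000167). ST7 rose by 0.44 under TXX-1-10 and by 0.55 under rimonabant. The lower value of MET under rimonabant passed the test in 14 of 22 alternatives (-0.33 to -0.18, adjusted p up to 0.156).

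Counting error was small beside these differences, the Poisson coefficient of variation of a member in a library running from 0.883% for CAVIN1 to 4.04% for CAVIN3. Between libraries the SD of the members was 0.769% to 5.31% of the mean in vehicle libraries and reached 14.4% for CAVIN3 under TXX-1-10. Counts of libraries of the same treatment differed by more than sampling noise in every pair (chi-square over degrees of freedom 2.29 to 42.2). The values from 24.3 up were all pairs with rimonabant replicate 1 or TXX-1-10 replicate 3, where values fell with gene length. This does not show that the libraries came from separate cultures. Each was counted as a library of its own.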

How the data were processed

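The authors sequenced oligo(dT)-selected RNA of MDA-MB-231 cells with NEBNext Ultra libraries on an Illumina platform, 3 libraries for each of DMSO, rimonabant and TXX-1-10. Per the labels, the reads were aligned with HISAT2 2.0.5 and counted with featureCounts 1.5.0-p3. For each gene and library the authors deposited a raw read count and an FPKM value. The total to which the authors scaled FPKM was worked out from the deposited count, length and FPKM, and served as library size. Lists are sorted by count and each of the 9 ends partway, so genes below the end of a list are not analysed here. The 4237 genes listed in all 9 libraries are the whole list of rimonabant replicate 1. The 9397 listed in the other 8 are the whole list of vehicle replicate 2. Shares of all genes are thus shares of genes picked by their counts in 1 library, and the part of this was not tested. Of the genes in the longest list, 27612 of 27615 have the coordinates of GENCODE release 29 (GRCh38).

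The 4236 genes listed in all 9 libraries with a mean of at least 1 FPKM were tested with edgeR 4.0.16 (quasi-likelihood test, R 4.3.3) on the counts, in a single fit with treatment as the term and Benjamini-Hochberg adjustment in each comparison, as were the 9369 genes listed in the 8 libraries other than rimonabant replicate 1. Standard errors are approximate, being the fold change over the root of the F statistic. Common dispersion corresponded to a biological coefficient of variation of 0.0696. The procedure was tested on simulated data. The alternatives were TMM, DESeq2 1.42.0, library sizes summed over the tested genes, limma 3.58.1 on log2(FPKM + 1) and log2(FPKM + 0.1), other filters on low values (none, or a mean of at least 5 FPKM), fits of the compared groups only, the replicate number as a block, a lowess correction for gene length (span 0.3), and each library left out. The replicate numbers are not stated to mark a shared culture or day. Correlations of the deviations of same-numbered libraries had no single sign, running from -0.79 to 0.83.

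The members and lists were chosen with earlier results of these data known. Named beside the members are genes called in any comparison and the most abundant gene of each list, the tested genes within 1 Mb of CAV1, the 3 genes most like CAV1, CAV2 and CAVIN1, and the markers of the line. Others are said to be chosen after their values were seen.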

Additional observations from a re-analysis of the deposited data

How the results depend on the processing

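Each of the 6 members kept the direction of its log2 fold change, relative to the library totals, under the alternatives run, except that EHD2 under TXX-1-10 against vehicle had values on both sides of 0. The number of members called for TXX-1-10 against vehicle was 1, and 2 without rimonabant replicate 1 and TXX-1-10 replicate 3 and without TXX-1-10 replicate 3 alone, where CAV2 passed the fold threshold at -1.07. Over single libraries left out it was 1 to 2. For rimonabant against vehicle, the actin and signalling list had 0 calls in all libraries and 0 to 1 with a library left out, the call arising without rimonabant replicate 2. In the fit of 8 libraries, the coat and neck list had 2 calls for TXX-1-10 against rimonabant and 1 with limma on log2(FPKM + 1), where ROR1 was lost. The clathrin list had 1 call there for TXX-1-10 against vehicle, 2 with library sizes summed over the tested genes and 0 with limma on log2(FPKM + 1). AP2A1, of the clathrin list, was at -0.11 on the log2 scale for TXX-1-10 against vehicle (edgeR adjusted p = 0.0461) and at 0.0576 with library sizes summed over the tested genes. With the replicate number as a block, the calls over all genes were 501, 48 and 250 in the 3 comparisons against 500, 48 and 251 without it, and no call of a member or list changed. The correlations of same-numbered deviations ran from -0.79 to 0.83, so the numbers were not taken to pair the libraries. The filter at a mean of 5 FPKM removed CAVIN2 and ROR1 and gives no count for the lists that lose genes to it. Causes of these changes were not tested. Lists that end early limit what can be said of genes with few counts.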
